A study of Mus musculus with 8 samples.

Results

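Collagens are the structural proteins of the extracellular matrix, each built from 3 chains wound into a triple helix. The collagen genes were taken here as every gene of the table whose symbol consists of Col, a type number, the letter a and a chain number. This rule gave 38 genes of 16302, and it used no expression value. All 38 are annotated as protein-coding on GRCm38 (mm10), and all 38 passed the filter on low levels and were tested.

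Mouse embryos at embryonic day 9.5 had been micro-dissected to obtain the second heart field (SHF) region, and its cells were pooled, sorted by fluorescence and used for RNA-seq. In embryos carrying Hoxb1-GFP, a green reporter under the control of Hoxb1 marks progenitors of the posterior SHF, and the sort gave 3 libraries of GFP+ cells and 1 library of GFP- cells. In embryos carrying Mef2c-AHF-Cre and Rosa-tdTomato, Cre recombinase is driven by an enhancer of Mef2c that is active in the anterior heart field and switches on a red protein permanently, so that descendants of these cells stay labelled. That sort gave 3 libraries of Tomato+ cells and 1 library of Tomato- cells. The genetic background of these embryos is not given in the sources used here, and all embryos were untreated as far as the labels state. In the methods the GFP allele stands under the symbol Hoxb1-, and an effect of the allele itself was not tested. Every Tomato library comes from the Cre line and every GFP library from the GFP line, so the reporter, the line and its dissections cannot be told apart.

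Fibrillar collagens (types I, II, III, V, XI, XXIV and XXVII) assemble into the cross-striated fibres of mesenchyme, vessel walls and cartilage, and the fibril-associated collagens (FACIT) decorate their surface. Type IV collagen forms the sheet-like network of basement membranes under epithelia and endothelia, and multiplexins sit at the edge of those membranes. Type VI forms beaded microfilaments, type VIII and type X short-chain networks, and transmembrane collagens stay in the plasma membrane. In the embryonic heart, collagens are known from the cushions, the epicardium and the vessel walls, and the mesoderm around the pharynx lies on endodermal and ectodermal basement membranes.

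The libraries held 22668185 to 41597870 reads, of which 12765045 to 27249149 lay outside mitochondrial genes. Levels below are given in normalized reads, for which the reads of a library were divided by its size factor, and the floor of 3 reads corresponded to 2.16 to 4.53 normalized reads. Within each positive group replicates 1 and 3 were almost copies, with a chi-square per degree of freedom of 2.35 in GFP+ and 2.38 in Tomato+ cells against 72.4 to 93.0 for pairs with replicate 2. Replicate 2 also held a larger share of mitochondrial reads, 42.4% in GFP+ and 43.7% in Tomato+ cells against 32.8 to 34.5% in replicates 1 and 3, as did the Tomato- library (51.4%) beside the GFP- library (32.7%), and the part of this in the results was not tested. The study calls such libraries biological replicates, but no label names separate pools of embryos, so every p below reflects the spread among libraries alone, and this spread may be technical. Counts of calls with replicates 1 and 3 averaged are given where they differ from those with 3 libraries. Hoxb1 checks the sort: it stood at 843, 719.9 and 986 normalized reads in GFP+, 301, 415 and 292 in Tomato+, 60.8 in GFP- and 199 in Tomato- cells, so that the GFP+ libraries were the highest. In these bulk libraries fewer cells of a type and less RNA per cell cannot be told apart.

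Promoter windows, from 250 bases before to 50 bases after the start of a transcript, were available for 29 of the 38 genes from RefSeq on GRCm38.p6. The first pair shown is that of Col4a1 and Col4a2, the chains of the commonest type IV collagen, because the genes start 21 bp apart on opposite strands and so share their start region. Their windows are written 5′ to 3′ on the strand of each gene, and the capitals mark the 78 bases that the windows share, read on opposite strands. The Col4a1 window lies at chr8:11312777-11313076 on the minus strand and the Col4a2 window at chr8:11312555-11312854 on the plus strand.
Col4a1: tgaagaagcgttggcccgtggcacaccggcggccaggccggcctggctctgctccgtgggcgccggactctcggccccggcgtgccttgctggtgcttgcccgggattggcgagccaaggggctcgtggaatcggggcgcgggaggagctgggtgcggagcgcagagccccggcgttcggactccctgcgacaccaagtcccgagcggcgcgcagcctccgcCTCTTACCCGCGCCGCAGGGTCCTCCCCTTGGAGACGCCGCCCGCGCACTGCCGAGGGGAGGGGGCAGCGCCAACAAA
Col4a2: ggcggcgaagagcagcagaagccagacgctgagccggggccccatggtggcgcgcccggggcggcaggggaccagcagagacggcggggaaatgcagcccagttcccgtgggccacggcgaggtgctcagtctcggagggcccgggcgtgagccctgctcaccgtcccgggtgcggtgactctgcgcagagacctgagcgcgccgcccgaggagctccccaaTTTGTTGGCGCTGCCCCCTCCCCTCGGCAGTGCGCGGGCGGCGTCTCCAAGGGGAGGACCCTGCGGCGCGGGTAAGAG

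The windows of 3 genes with large differences between the populations follow, with capitals on the GC box (GGGCGG) and the CCAAT box, searched on both strands. Col6a3 (chr1:90843922-90844221, minus strand) carried neither motif, and Col1a2 (chr6:4505368-4505667, plus strand) and Col11a1 (chr3:114030290-114030589, plus strand) carried both.
Col6a3: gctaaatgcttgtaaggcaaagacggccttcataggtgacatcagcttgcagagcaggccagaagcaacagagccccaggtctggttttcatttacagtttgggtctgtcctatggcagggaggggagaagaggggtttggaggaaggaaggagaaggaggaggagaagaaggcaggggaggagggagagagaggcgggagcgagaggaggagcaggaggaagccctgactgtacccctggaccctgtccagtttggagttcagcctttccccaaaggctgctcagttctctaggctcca
Col1a2: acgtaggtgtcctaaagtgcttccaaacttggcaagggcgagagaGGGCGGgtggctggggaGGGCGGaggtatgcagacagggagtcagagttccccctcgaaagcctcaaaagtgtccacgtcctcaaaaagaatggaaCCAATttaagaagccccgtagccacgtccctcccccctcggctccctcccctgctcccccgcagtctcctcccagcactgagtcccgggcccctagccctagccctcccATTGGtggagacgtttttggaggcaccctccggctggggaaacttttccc
Col11a1: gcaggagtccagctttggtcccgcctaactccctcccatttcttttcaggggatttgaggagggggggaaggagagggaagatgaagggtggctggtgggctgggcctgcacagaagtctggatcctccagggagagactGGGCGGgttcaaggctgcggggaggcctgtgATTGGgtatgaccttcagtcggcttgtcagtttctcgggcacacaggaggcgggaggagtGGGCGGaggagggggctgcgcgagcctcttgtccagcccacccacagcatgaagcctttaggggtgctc

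The GC box was found in 19 of the 32 collagen windows and in 35.7% of all 32851 windows of that length, and the CCAAT box in 11 of 32 and in 37.4% of all. The TATA box, searched as TATAAA, was found in 5 of 32 collagen windows and in 13.6% of all, and a SOX motif, searched as ACAAAG or ACAATG, in 4 of 32 and in 28.6% of all. Of the 13 windows of genes lower in GFP+ cells, described below, 0 held the TATA box or the SOX letters and 9 held the GC box. No window was available for the lower genes Col1a1, Col2a1, Col5a2, Col9a3 and Col12a1. These matches describe letters only.

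GFP+ cells carried less collagen RNA than Tomato+ cells, and most of the genes that differed were lower in GFP+ cells. By limma on log2(normalized reads + 1), with a Benjamini-Hochberg adjusted p under 0.05 over all 16153 genes tested, 16 collagen genes were lower in GFP+ cells, 3 were higher and 19 did not pass. Lower calls made up 42.1% of the collagen genes and 20% of all genes tested, and higher calls 7.89% and 19.7%. The median log2 fold change was -0.59 over the collagen genes and -0.01 over all genes. With replicates 1 and 3 averaged, 12 collagen genes were lower and 0 were higher, where all genes gave 9.24% lower and 8.90% higher. The 7 genes that averaging removed were Col13a1, Col18a1 and Col4a6, which had been higher, and Col25a1, Col27a1, Col5a1 and Col5a2, which had been lower. The count of higher collagen genes was 1 without GFP+ replicate 3 or Tomato+ replicate 1 and 5 without Tomato+ replicate 2. Scaling the libraries to their reads outside mitochondrial genes moved the median log2 fold change of all genes to -0.14 and the share of higher calls among all calls from 49.7% to 37.3%, and gave 18 lower and 2 higher collagen genes. The libraries of GFP+ and Tomato+ cells did not overlap for 27 of 38 collagen genes, against 54.6% of all genes.

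**Figure D1:**
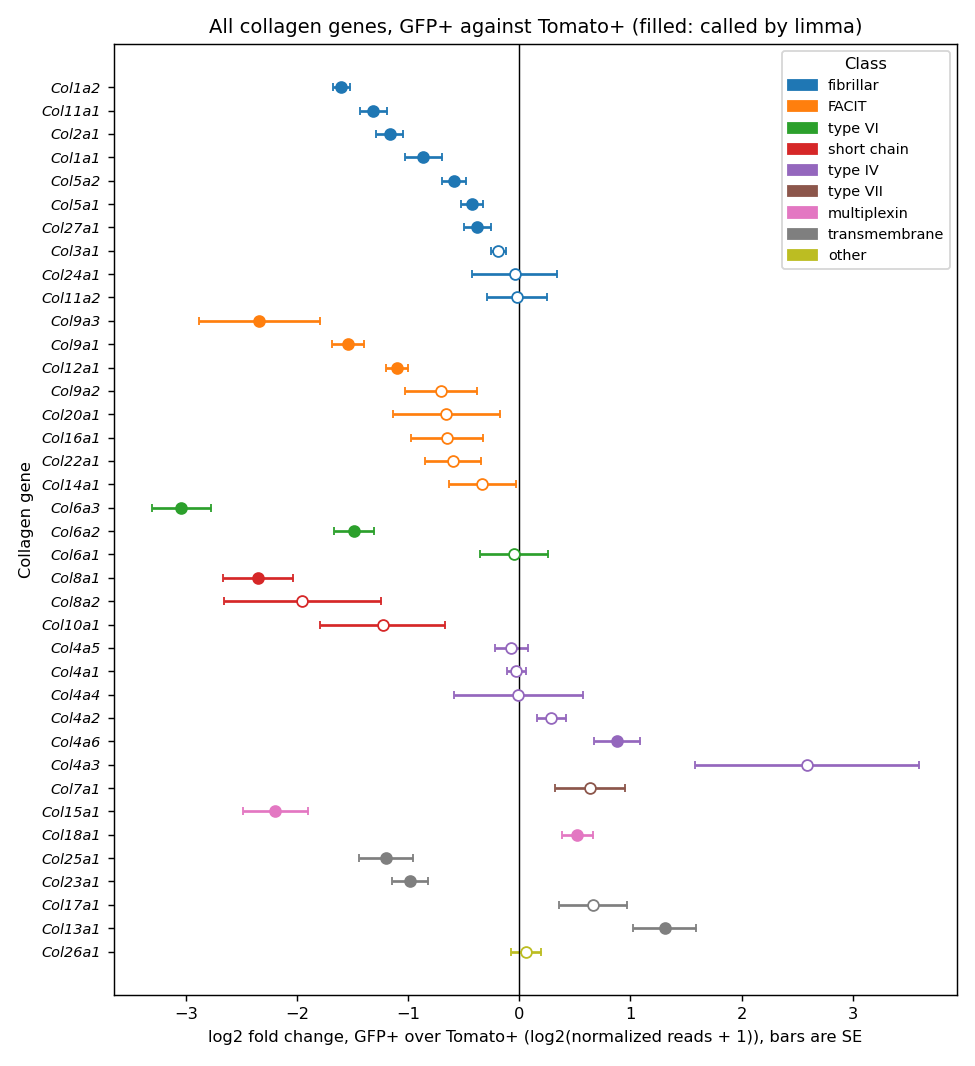
The log2 fold change of GFP+ over Tomato+ cells is plotted for the 38 collagen genes, grouped by class and coloured by it, with bars of 1 SE and filled points for genes called by limma. Of the filled points 16 lie left of 0, down to -3.04 for Col6a3, and 3 lie right of it, up to 1.31 for Col13a1.

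Collagen reads summed over the 38 genes took 0.142 ± 0.00251% (SD, n = 3) of the reads outside mitochondrial genes in GFP+ and 0.245 ± 0.00914% (SD, n = 3) in Tomato+ cells. The lone GFP- library held 0.113% (95% Wilson interval 0.111 to 0.114%) and the lone Tomato- library 0.218% (0.215 to 0.220%), where the intervals cover counting error only. The sum was thus lower in both fractions of the GFP line than in both fractions of the Tomato line, by normalized reads as well: 28754, 28063 and 28409 in GFP+, 21612 in GFP-, 43858, 46170 and 43806 in Tomato+, and 42728 in Tomato- cells. Its composition differed too. Fibrillar chains made up 62.7 ± 0.224% of collagen reads in GFP+ and 69.8 ± 0.775% in Tomato+ cells, and type IV chains 16.4 ± 0.748% and 9.63 ± 0.55% (SD, n = 3 each). GFP- cells, at 61.3% fibrillar and 18.7% type IV, lay near GFP+ cells, and Tomato- cells, at 70.7% and 9.12%, near Tomato+ cells. The summed type IV level itself overlapped between the groups, at 4552 to 4848 normalized reads in GFP+ and 3976 to 4699 in Tomato+ cells.

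**Figure D2:**
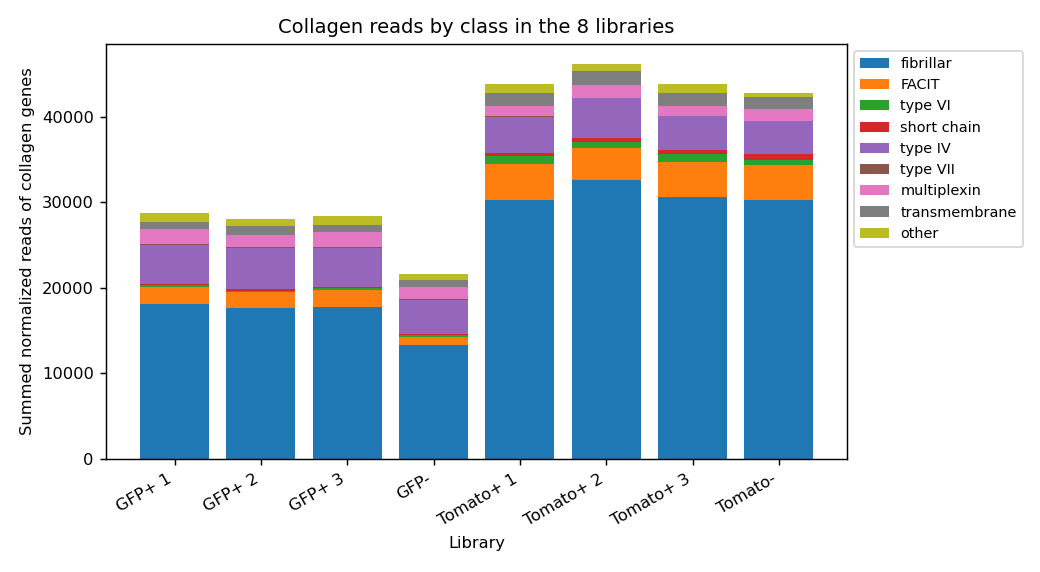
Stacked bars give the normalized reads of collagen genes by class in each of the 8 libraries. The GFP+ bars end between 28063 and 28754 and the GFP- bar at 21612, the Tomato+ bars between 43806 and 46170 and the Tomato- bar at 42728, and the fibrillar part accounts for most of the gap.

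Of the 10 fibrillar genes 7 were lower in GFP+ cells, 0 were higher and 3 were not called (all genes: 20% lower, 19.7% higher). Their median log2 fold change was -0.51, and with replicates 1 and 3 averaged 4 were lower (9.24% of all genes). Col1a2, the second chain of type I collagen (chromosome 6, 4504814 to 4541544), stood at 2465, 2541 and 2369.6 normalized reads in GFP+ and at 7723, 7054 and 7641 in Tomato+ cells. It was 3.04-fold lower in GFP+ cells (log2 -1.60 ± 0.07 SE, limma adjusted p = 8.68e-06), the smallest p among the collagen genes. Col1a1, the other chain of type I (chromosome 11, 94936224 to 94953042), stood at 1546, 1364 and 1507 in GFP+ and at 2282, 3529 and 2393 in Tomato+ cells. Again no GFP+ library reached a Tomato+ library, but the gap was smaller, 1.82-fold (log2 -0.87 ± 0.17 SE, limma adjusted p = 0.005), and Tomato+ replicate 2 stood above the others.

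Col2a1 and Col11a1 were lower in GFP+ cells as well. Col2a1, the chain of type II collagen of cartilage and the notochord sheath (chromosome 15, 97975602 to 98004695), stood at 2591, 2326 and 2589 in GFP+ and at 5176, 6727 and 5090.4 in Tomato+ cells, a 2.25-fold difference (limma adjusted p = 0.000294). Col11a1, a type XI chain that nucleates thin fibrils (chromosome 3, 114030540 to 114220718), stood at 1209.7, 1024 and 1174 against 2566, 3284 and 2673, a 2.49-fold difference (limma adjusted p = 0.000179). Neither gene had overlapping groups. Col11a2, its partner chain, was low and alike, at 91.4 ± 11.4 and 93.1 ± 14.6 normalized reads (SD, n = 3; limma adjusted p = 0.959).

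The type V chains, which join type I fibrils and limit their width, differed less. Col5a2 stood at 941, 1092 and 916 in GFP+ and at 1484, 1404 and 1538 in Tomato+ cells, 1.5-fold lower (limma adjusted p = 0.00393). Col5a1 stood at 1367, 1225 and 1405 against 1871, 1658 and 1851, 1.35-fold lower (limma adjusted p = 0.0116), and Col27a1, a fibrillar chain of developing cartilage, at 765, 653 and 820.3 against 970.2, 1022 and 908, 1.3-fold lower (limma adjusted p = 0.0427). The groups did not overlap for these 3 genes, yet none passed with replicates 1 and 3 averaged (limma adjusted p of 0.102, 0.162 and 0.225). Col27a1 passed in 1 of the 6 fits that left out 1 library, the one without GFP+ replicate 2, and in the others its adjusted p by limma was 0.0619 to 0.123. Col5a1 did not pass without Tomato+ replicate 1 (limma adjusted p = 0.0569) or replicate 3 (0.0563).

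Col3a1, the chain of type III collagen of soft tissue and vessel walls (chromosome 1, 45311538 to 45349706), was the highest of the collagen genes in normalized reads per kb of annotated exon, at 702 in GFP+ and 801 in Tomato+ cells. Its libraries stood at 6939.9, 7059 and 6679 in GFP+ and at 7954, 7415 and 8225 in Tomato+ cells, without overlap. The difference of 1.14-fold did not pass (log2 -0.19 ± 0.07 SE, limma adjusted p = 0.0642). It passed without GFP+ replicate 2 (limma adjusted p = 0.0347) and without Tomato+ replicate 2 (0.0164), with DESeq2 (adjusted p = 0.0399), and with scaling to reads outside mitochondrial genes (log2 -0.32, limma adjusted p = 0.0074). Col2a1 was next in both populations by this measure, at 271 per kb in GFP+ and 613 per kb in Tomato+ cells. The gene after Col2a1 differed, with Col4a1 at 255 per kb in GFP+ cells and Col1a2 at 601 per kb in Tomato+ cells. By this measure the libraries of Col2a1 overlapped those of Col4a1 in GFP+ cells and those of Col1a2 in Tomato+ cells.

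Of the 8 fibril-associated genes 3 were lower in GFP+ cells (20% of all genes were) and 5 did not pass. Col12a1, whose protein binds type I fibrils in dense mesenchyme (chromosome 9, 79598991 to 79718831), stood at 1011, 962 and 949 in GFP+ and at 2245, 1897 and 2151 in Tomato+ cells, 2.15-fold lower (log2 -1.10 ± 0.10 SE, limma adjusted p = 0.000154). Col9a1, a chain of type IX collagen on the surface of type II fibrils (chromosome 1, 24177610 to 24252684), stood at 355, 282 and 317 against 972, 831 and 974, 2.91-fold lower (limma adjusted p = 0.000177). Col9a3, another type IX chain (chromosome 2, 180597790 to 180622189), was low, at 24.9, 46.1 and 26.4 against 97.4, 372 and 118. All GFP+ libraries lay under all Tomato+ libraries for these genes, and the size of the Col9a3 difference (5.08-fold, limma adjusted p = 0.0114) rested in part on Tomato+ replicate 2, with a log2 fold change of -2.34 that was -1.75 without that library. Exons of Col9a3 share 234 bases with Tcfl5 on the opposite strand, 6.07% of their length. By the methods paragraph followed here the library preparation keeps no strand. Col14a1, a relative of Col12a1, overlapped between the groups, at 399, 247 and 403 in GFP+ and 515, 283 and 547 in Tomato+ cells (limma adjusted p = 0.408).

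The beaded-filament chains of type VI did not differ alike. Col6a3, the long chain of the trimer (chromosome 1, 90765923 to 90843971), showed the largest difference of the collagen genes. It stood at 51.2, 41.5 and 48.4 normalized reads in GFP+ and at 436, 292 and 478 in Tomato+ cells, 8.24-fold lower (log2 -3.04 ± 0.26 SE, limma adjusted p = 0.000135). Col6a2 (chromosome 10, 76595762 to 76623630) stood at 124, 109.7 and 124 against 340.4, 316 and 352, 2.81-fold lower (limma adjusted p = 0.000615). For both, the groups lay well apart. Col6a1, which lies 85161 bp from Col6a2 in the same direction, stood at 92.9, 71.9 and 105 in GFP+ and at 114, 70.8 and 96.4 in Tomato+ cells, with a log2 fold change of -0.05 ± 0.31 SE (limma adjusted p = 0.911). All 3 chains also passed or missed the test in the same way with replicates 1 and 3 averaged.

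Among the short-chain network collagens, Col8a1, a chain of the matrix under vessel endothelium (chromosome 16, 57624258 to 57754737), stood at 51.9, 32.3 and 62.8 in GFP+ and at 211, 280.3 and 250.3 in Tomato+ cells. This 5.11-fold difference passed (log2 -2.35 ± 0.31 SE, limma adjusted p = 0.000938). Its partner Col8a2 was low in GFP+ cells, at 9.51, 6.45 and 6.61 normalized reads, and at 16.4, 75.0 and 25.2 in Tomato+ cells, and did not pass (limma adjusted p = 0.0597). It was called with no filter on low genes, with edgeR (adjusted p = 0.0448), with DESeq2 (0.0146) and with scaling to reads outside mitochondrial genes (limma adjusted p = 0.0497). Col10a1, a marker of hypertrophic cartilage, overlapped between the groups, at 27.8, 103 and 34.1 in GFP+ and 151, 65.1 and 134 in Tomato+ cells (limma adjusted p = 0.118). In each group it was replicate 2 that went against the other libraries, and without GFP+ replicate 2 the gene passed (log2 -1.80, limma adjusted p = 0.02).

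Of the 6 basement membrane genes of type IV, 1 was higher in GFP+ cells (19.7% of all genes were) and 5 were not called. Their median log2 fold change was 0.14. With replicates 1 and 3 averaged none of the 6 was called, and whether the class differed from the fibrillar genes was not tested. Col4a1 (chromosome 8, 11198423 to 11312826) stood at 1921, 1808 and 1972 in GFP+ and at 2010.5, 1935 and 1859.8 in Tomato+ cells, with a log2 fold change of -0.03 ± 0.08 SE (limma adjusted p = 0.829). Col4a2 (chromosome 8, 11312805 to 11449287), at 1448, 1647 and 1331 against 1145, 1402 and 1088, did not pass either (log2 0.29 ± 0.13 SE, limma adjusted p = 0.12), though it did without Tomato+ replicate 2 (limma adjusted p = 0.0272). Groups of both genes overlapped, and their exons share 22 bases at the divergent start shown above.

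Col4a5 and Col4a6, X-linked genes that also start head to head and whose chains build a separate type IV network, parted. Col4a6 (chromosome X, 141165403 to 141474076), made under some epithelia and smooth muscle, stood at 353, 371 and 385 in GFP+ and at 164, 262 and 189 in Tomato+ cells, 1.84-fold higher (log2 0.88 ± 0.21 SE, limma adjusted p = 0.0125). The call was lost without GFP+ replicate 3 (limma adjusted p = 0.0542) or Tomato+ replicate 1 (0.0509), and with replicates 1 and 3 averaged (0.155). Col4a5 (chromosome X, 141475385 to 141689234) stood at 767, 994 and 831 against 862, 1066 and 800.5, with overlapping groups (limma adjusted p = 0.737). Their RefSeq starts lie 1343 bp apart. Col4a3 and Col4a4 were the lowest type IV genes, with means of 20.9 and 39.1 normalized reads in GFP+ and 4.32 and 36.3 in Tomato+ cells, and neither passed.

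Both multiplexin genes were called, in opposite directions (all genes: 19.7% higher, 20% lower), and with replicates 1 and 3 averaged only the lower one was. Col18a1, the precursor of endostatin in epithelial and vascular basement membranes (chromosome 10, 77052178 to 77166548), stood at 1695, 1331 and 1654 in GFP+ and at 1006, 1242 and 1007 in Tomato+ cells, 1.44-fold higher (limma adjusted p = 0.0185). The groups did not overlap, but replicate 2 came close in both, and the call was lost without replicate 1 or 3 of either group (adjusted p by limma 0.0678 to 0.0766) with replicates 1 and 3 averaged (0.212) and with scaling to reads outside mitochondrial genes (log2 0.39, limma adjusted p = 0.0594). Col15a1, found around capillaries and muscle (chromosome 4, 47208161 to 47313167), stood at 40.2, 28.6 and 46.2 against 177, 174 and 177, 4.59-fold lower (log2 -2.20 ± 0.29 SE, limma adjusted p = 0.000967). Col7a1, the anchoring fibril gene of skin, was low and did not pass, at 76.8, 96.8 and 66.1 in GFP+ and 52.8, 53.8 and 45.3 in Tomato+ cells (limma adjusted p = 0.145).

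Of the 4 transmembrane genes 1 was higher, 2 were lower and 1 was not called (all genes: 19.7% higher, 20% lower). The libraries of the groups did not overlap for any of the 4, as for 54.6% of all genes. With replicates 1 and 3 averaged 1 was lower and 0 were higher. Col13a1, a protein of cell-matrix contacts and of the neuromuscular junction (chromosome 10, 61838236 to 61979108), stood at 127, 133 and 117 in GFP+ and at 44.6, 60.9 and 46.0 in Tomato+ cells, 2.47-fold higher (log2 1.31 ± 0.28 SE, limma adjusted p = 0.00826). This was the largest rise among the collagen genes called, and it did not pass with replicates 1 and 3 averaged (limma adjusted p = 0.173). Col23a1 (chromosome 11, 51289920 to 51583918) stood at 458, 521 and 447 against 862, 1172 and 827, 1.98-fold lower (limma adjusted p = 0.00247). Col25a1, a muscle membrane collagen needed for innervation by motor axons (chromosome 3, 130131501 to 130599877), stood at 171, 291 and 216 against 598, 399 and 552, 2.3-fold lower (limma adjusted p = 0.00643, and 0.0557 with replicates 1 and 3 averaged). Col17a1, a hemidesmosome protein of epithelia, had means of 108 ± 22.5 and 67.5 ± 13.1 (SD, n = 3; limma adjusted p = 0.12). Col26a1, outside these classes, overlapped at 1089, 883 and 1096 against 1053, 852 and 1042 (limma adjusted p = 0.768).

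**Figure D3:**
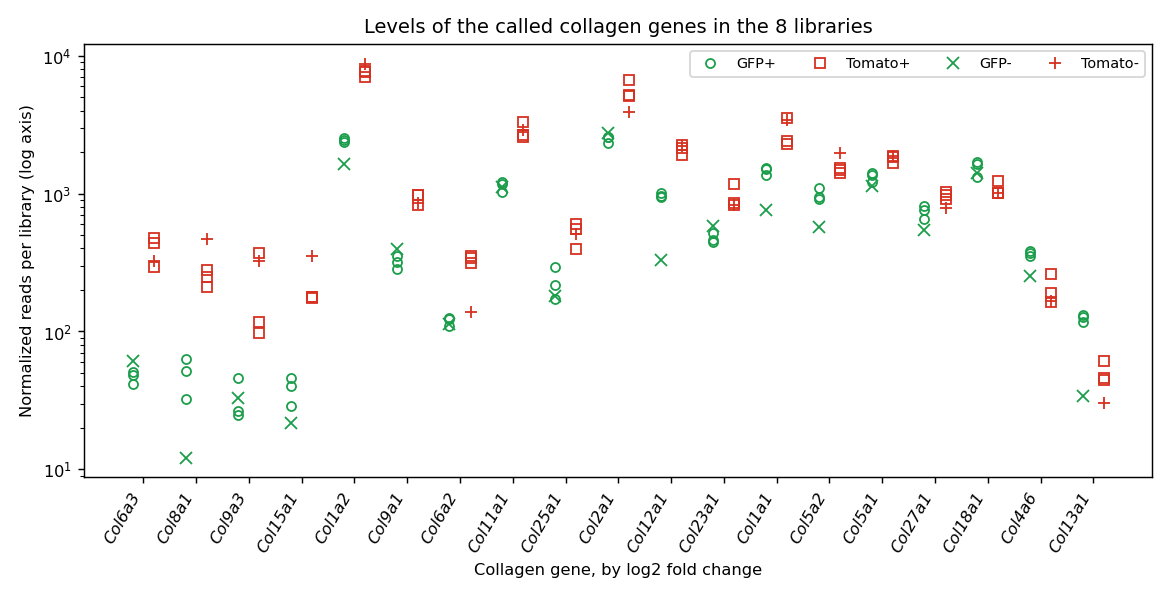
The 19 collagen genes called by limma are ordered by log2 fold change, and each symbol is the level of 1 library in normalized reads on a log axis, with GFP libraries in green and Tomato libraries in red. GFP+ and Tomato+ symbols do not mix for these genes, and the GFP- symbol lies on the GFP+ side for Col6a3 (60.8) and Col2a1 (2761) but below all Tomato+ symbols and all GFP+ symbols for Col13a1 (33.9).

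Chains that assemble into 1 trimer can be compared within a library, where the scaling of libraries cancels. In 5 of the 9 pairs the ratio did not overlap between GFP+ and Tomato+ cells. The exact two-sided permutation test of 3 against 3 cannot go below p = 0.1, and these 5 pairs reached that value (p = 0.18 adjusted over the 9 pairs, exact permutation test), so none can pass 0.05. Col6a3 over Col6a1 shifted most: the ratio of their normalized reads was 0.556, 0.583 and 0.468 in GFP+ and 3.81, 4.08 and 4.92 in Tomato+ cells, a difference of -2.99 on the log2 scale, with 1.09 in GFP- and 2.88 in Tomato- cells. Thus Col6a3 had fewer reads than Col6a1 in every GFP+ library and more in every Tomato+ library. Col6a1 over Col6a2 was 0.753, 0.659 and 0.842 in GFP+ and 0.336, 0.227 and 0.276 in Tomato+ cells, a log2 difference of 1.44.

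Type I and type XI chains shifted as well. Col1a1 over Col1a2 was 0.627, 0.537 and 0.636 in GFP+ and 0.296, 0.5 and 0.313 in Tomato+ cells, a log2 difference of 0.74, and replicate 2 of each group came within a short distance of the other. Col11a1 over Col11a2 was 14.1, 11.9 and 11.1 against 25.2, 31.9 and 34.6, a log2 difference of -1.30. Col4a5 over Col4a6 was 2.17, 2.67 and 2.15 against 5.24, 4.06 and 4.21, a log2 difference of -0.95. The ratios of Col4a1 to Col4a2, Col5a1 to Col5a2, Col8a1 to Col8a2 and Col9a1 to Col9a3 overlapped between the groups, with log2 differences of -0.31, 0.16, -0.40 and 0.80 (exact permutation p of 0.2, 0.4, 0.6 and 0.4).

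**Figure D4:**
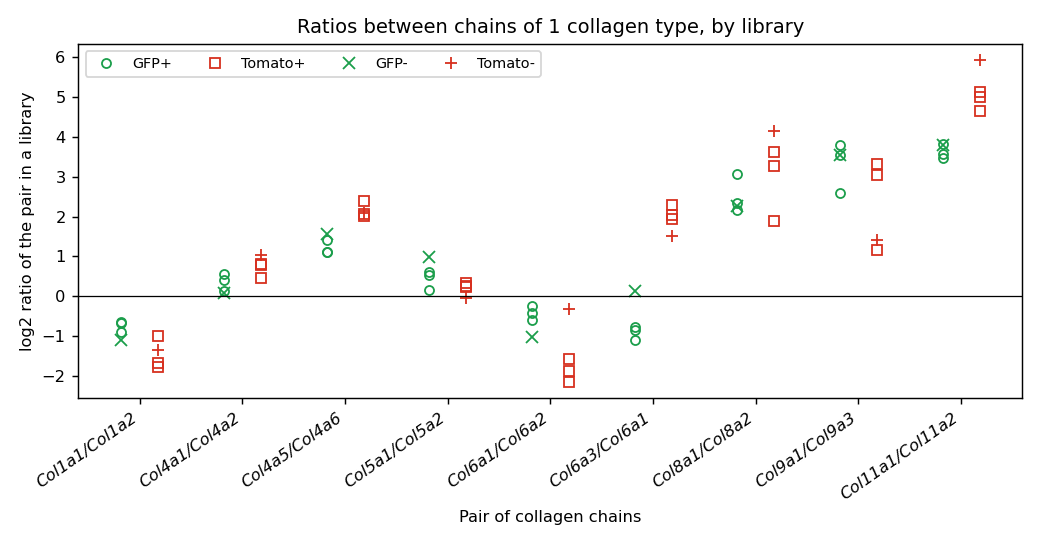
Each symbol is the log2 ratio of the normalized reads of both chains of a pair in 1 library, for 9 pairs and all 8 libraries. The pairs Col6a3/Col6a1 (means of -0.91 in GFP+ and 2.09 in Tomato+ cells) and Col11a1/Col11a2 (3.62 and 4.92) separate the groups, and Col4a1/Col4a2 and Col5a1/Col5a2 do not.

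Cells that had been sorted as reporter-negative carried much of the same collagen difference. Each negative group is 1 library, so these values have no replicate check and no test. All 16 genes lower in GFP+ than in Tomato+ cells were also lower in GFP- than in Tomato- cells, 11 of them by over 1 log2 unit, and the 3 higher genes were also higher there. The same counts were not made for all genes called. Of the 19 collagen genes not called, 16 matched in sign and 7 were lower in GFP- cells by over 1 log2 unit. In all, 29 of 38 collagen genes were lower in GFP- than in Tomato- cells, against 8047 of 16153 genes tested. Over the 38 collagen genes the signs matched for 35, against 10667 of 16153 for all genes tested, with Pearson's r = 0.47 and Spearman's rho = 0.64 across collagen genes (0.42 and 0.42 across all genes). These are values across genes, which share libraries and are not independent. Between GFP- and Tomato- cells the median log2 ratio was -0.94 over collagen genes and 0.00 over all genes. Col1a2 had 1632 normalized reads in GFP- and 8773 in Tomato- cells, Col8a1 at 12.2 and 469.7, Col15a1 at 21.7 and 353, and Col6a3 at 60.8 and 323. By contrast, Col2a1 stood at 2761 and 3923, and Col6a2 at 114 and 139, a much smaller gap than in the sorted positive cells. Col17a1 went the other way, at 48.6 in GFP- and 3.02 in Tomato- cells, as did Col7a1, at 62.5 and 10.6.

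**Figure D5:**
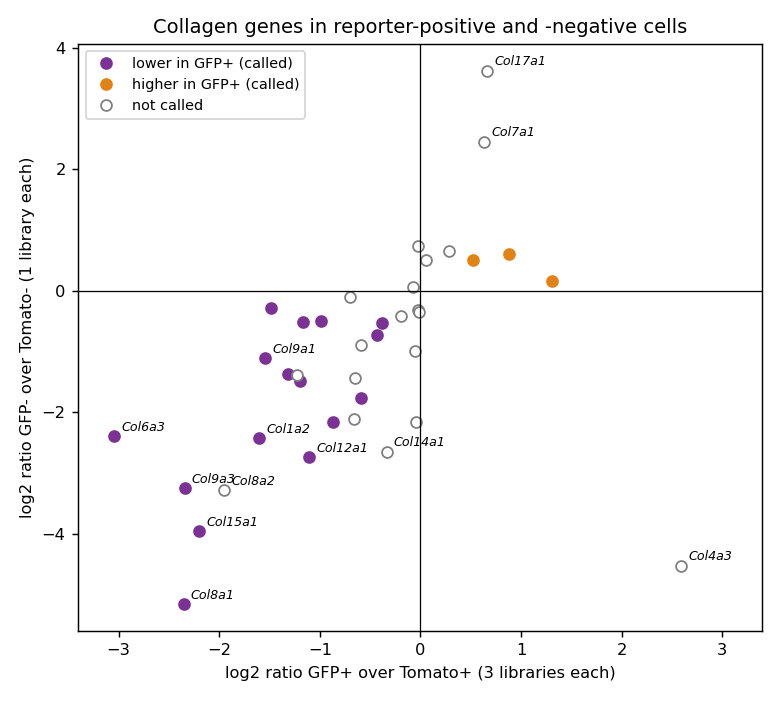
For each collagen gene the log2 ratio of GFP- to Tomato- cells (1 library each) is plotted against that of GFP+ to Tomato+ cells (3 libraries each). The 16 lower genes (purple) all lie in the lower left and the 3 higher genes (orange) in the upper right, and Col4a3 lies far off in the lower right.

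Within a line, a gene was counted as apart between positive and negative cells when its negative library lay 2-fold or more beyond each positive library. The higher of both sides also had to reach 50 normalized reads. Shares of collagen genes are given beside those of all genes, and the difference between these shares was not tested. In the GFP line 3 collagen genes were higher in GFP+ cells (7.89%, against 4.28% of all genes) and 0 were lower (3.63% of all genes). Col14a1 stood at 59.9 in GFP- cells, 5.61-fold under the GFP+ level, Col13a1 at 33.9, 3.62-fold under it, and Col12a1 at 329, 2.95-fold under it. So Col12a1, lower in GFP+ than in Tomato+ cells, was nevertheless higher in GFP+ than in GFP- cells. In the Tomato line 4 were higher in Tomato+ cells (10.5%, against 7.92% of all genes) and 1 was lower (2.63%, against 6.69%). Col17a1 stood at 3.02 in Tomato- cells against 74.6, 52.4 and 75.5 in Tomato+ cells, and Col6a2 at 139, 2.41-fold under its Tomato+ level. Col7a1 and Col9a2 were the other higher genes. The number apart was 5 in the GFP line without GFP+ replicate 2 and 8 in the Tomato line without Tomato+ replicate 2. Col4a3 was the lower one, at 122 in Tomato- cells and 0.91, 11.3 and 0.719 in Tomato+ cells. Of its annotated exon length 5.65% is shared with C430014B12Rik on the opposite strand. The major fibrillar genes did not stand apart in either line: Col3a1 was 4521 in GFP- and 6048 in Tomato- cells, each below all 3 positive libraries of its line.

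Among 22 measured genes of collagen modification and folding, GFP+ cells had 4 higher, 4 lower and 14 not called, where 19.7% of all genes were higher and 20% lower, and the median log2 fold change was 0.10. With replicates 1 and 3 averaged 3 were higher and 0 were lower. Serpinh1, the collagen chaperone HSP47, stood at 3449, 3039.9 and 3297 in GFP+ and at 1389.8, 1383 and 1479 in Tomato+ cells, 2.3-fold higher (limma adjusted p = 5.78e-05). Its direction was opposite to that of the fibrillar chains it folds, with all GFP+ libraries above all Tomato+ libraries. P3h4, a partner of the lysyl and prolyl hydroxylases, had means of 302 ± 47.9 and 133 ± 32.1 (limma adjusted p = 0.00749), and P3h2, a prolyl 3-hydroxylase of type IV collagen, 579 ± 69.5 and 292 ± 93.8 (limma adjusted p = 0.0158; SD, n = 3 each). P4hb, the beta subunit of prolyl 4-hydroxylase, was 2.04-fold higher, and the catalytic subunit gene P4ha3 fell by 1.03 on the log2 scale. The calls of P3h4 and P4ha3 were lost with replicates 1 and 3 averaged (limma adjusted p of 0.0618 and 0.14).

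Of 11 genes of procollagen processing and crosslinking 2 were higher, 3 were lower and 6 were not called (all genes: 19.7% higher, 20% lower). With replicates 1 and 3 averaged 1 was higher and 0 were lower (all genes: 8.90% and 9.24%). Loxl2, a lysyl oxidase that crosslinks type IV collagen, stood at 3544, 3424 and 3559 in GFP+ and at 1136, 1648 and 1118 in Tomato+ cells, 2.74-fold higher (limma adjusted p = 0.000307). Lox, the lysyl oxidase of fibrillar collagens, stood at 192, 105 and 149.8 against 274, 377 and 268, 2.08-fold lower (limma adjusted p = 0.0167). These related enzymes therefore differed in opposite directions, and Lox did not pass with replicates 1 and 3 averaged (limma adjusted p = 0.0508). Adamts2, which trims the amino end of procollagens, was 2.07-fold higher (limma adjusted p = 0.0416), and not with averaged replicates (0.26). Bmp1 and Pcolce, the proteinase of the carboxyl end and its enhancer, fell by 0.68 and 0.63 on the log2 scale, and neither was called with averaged replicates (limma adjusted p of 0.126 and 0.133).

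Of 8 measured proteoglycan and matricellular genes that code for fibril-binding proteins 5 were lower in GFP+ cells, 0 were higher and 3 were not called (all genes: 20% lower, 19.7% higher). Their median log2 fold change was -1.50. With replicates 1 and 3 averaged 5 were lower and 0 were higher (all genes: 9.24% and 8.90%). Fmod, a small proteoglycan on type I fibrils, stood at 1.46, 10.1 and 3.3 normalized reads in GFP+ cells and at 104, 118 and 86.3 in Tomato+ cells (limma adjusted p = 0.00162). Bgn, another such proteoglycan, stood at 241, 222 and 249 against 819, 1028 and 896, 3.83-fold lower (limma adjusted p = 6.27e-05), and the thrombospondin gene Thbs2 at 10.2, 16.6 and 19.8 against 67.3, 189.7 and 68.3 (limma adjusted p = 0.00691). The groups lay apart for all 3 of these. Lum and Thbs1 were the remaining lower genes, and Dcn, Sparc and Postn, not called, had log2 fold changes of 0.42, 0.22 and 0.03.

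Of the 8 collagen receptor genes 1 was higher, 4 were lower and 3 were not called (all genes: 19.7% higher, 20% lower). With replicates 1 and 3 averaged 1 was higher and 2 were lower (all genes: 8.90% and 9.24%). Itga11, the integrin chain for type I collagen, fell by 1.25 on the log2 scale (limma adjusted p = 0.0022, and 0.0553 with averaged replicates), and the receptor tyrosine kinase gene Ddr1 by 0.92 (limma adjusted p = 0.0111). Itgb1, the common beta chain, was higher, with means of 5191 ± 174 and 3094 ± 204 (SD, n = 3; limma adjusted p = 0.000343). The receptor list thus held changes in both directions. Of 7 genes of collagen degradation and its inhibitors 1 was higher and 3 were lower, and with averaged replicates 0 and 2. The shares of all genes are those given for the receptors. Mmp2, a gelatinase, fell by 0.79 and its inhibitor gene Timp2 by 0.73 on the log2 scale, and the membrane proteinase gene Mmp14 was 1.42-fold higher (limma adjusted p = 0.0313, and 0.275 with averaged replicates). The transcription factor genes Sox9, Sox5 and Sox6, known to switch on Col2a1, Col9a1 and Col11a1 in cartilage, were all lower (20% of all genes were). Sox9 stood at 1153, 936 and 1229 in GFP+ and at 3779, 3985 and 3815 in Tomato+ cells, 3.51-fold lower (limma adjusted p = 3.45e-05), and Sox5 and Sox6 were 1.84-fold and 1.83-fold lower. In GFP- and Tomato- cells Sox9 stood at 1273 and 3661, again lower in the GFP line.

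Markers of other cell types moved with the groups, and their part in the collagen differences was not tested. For comparison, 19.7% of all genes tested were higher and 20% lower in GFP+ cells (8.90% and 9.24% with replicates 1 and 3 averaged). All 4 red blood cell genes were lower in GFP+ cells, with sums of 464 to 834 normalized reads in GFP+ and 106082 to 129500 in Tomato+ cells. The negative libraries held 268260 (GFP-) and 244971 (Tomato-) of these reads, and so were alike in red cell RNA where their collagen sums of 21612 and 42728 were not. All 4 epithelial genes were higher in GFP+ cells (sums of 5094 to 6278 against 709 to 841), as were all 3 measured cardiomyocyte genes (2371 to 2559.8 against 221 to 453). Of 4 endothelial genes Cdh5 and Pecam1 were lower and 2 did not pass (sums of 1177 to 1303 against 1761 to 1958). Of 4 mesenchymal genes Prrx1 and Twist1 were lower, Prrx2 was higher and Pdgfra did not pass (sums of 10530 to 11419 against 12471 to 13987). For the sclerotome, a source of cartilage collagens, Pax1 was lower and Meox1 and Pax9 were higher (1847 to 2334 against 1462 to 1627). The notochord, another site of Col2a1, had 2 measured markers, of which Shh was higher, at 1281, 1548 and 1332 in GFP+ against 47.3, 32.6 and 46.0 in Tomato+ cells, and Chrd was not called (sums of 1308 to 1584 against 72.8 to 79.3). Of 4 neural tube genes Olig2 was higher, Elavl3 was lower and Pax6 and Sox1 were not called (2194 to 2808 against 3803 to 4908). None of 3 measured neural crest genes was called (762 to 937 against 527 to 732). All 4 second heart field genes were higher (4317 to 4702 against 2634 to 2909). Of these, Hoxb1 is the gene that the GFP reporter follows, so its direction was set by the sort. Tbx1, given by the study as an anterior SHF marker, had means of 242 in GFP+ and 122 in Tomato+ cells. Mef2c stood at 1451, 1469 and 1412 in Tomato+ and at 2117 in Tomato- cells. With replicates 1 and 3 averaged Tbx1, Mef2c and the mesenchymal gene Prrx2 were not called (limma adjusted p of 0.264, 0.104 and 0.178). No measured marker gene was at 0 in every library of a group.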

How the data were processed

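By the methods paragraph followed here, RNA from sorted cells (2 ng per library) was amplified by single primer isothermal amplification, which keeps no strand, and sequenced. Per the labels and methods, the authors aligned reads with STAR 2.5.2 to GRCm38 (mm10), counted them per gene with HTSeq and normalized them with DESeq2. A further methods paragraph names another library kit, single-end reads, RSEM and edgeR, which conflicts with the preparation given here as well. Library columns of the deposited table hold a signal, reads divided by 1 size factor per library. Whole reads were recovered for 100.0% of values (tolerance 0.01). The table also holds the authors' log2 fold changes, their Wald score and their p-values, which were not used. As these values are no counts, log2(normalized reads + 1) of GFP+ and Tomato+ libraries was fitted in limma 3.58.1 (R 4.3.3) using a trend, for the 16153 of 16302 genes averaging 10 or more. Tests were two-sided, without covariates, and calls needed an adjusted p (Benjamini-Hochberg) under 0.05. Folds are on this log2 scale and understate the change of low genes. Alternatives included edgeR 4.0.16 and DESeq2 1.42.0 on recovered reads, other pseudocounts, filters and scalings, and leaving out each library.

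Chain ratios were compared by an exact permutation test. Comparisons with the lone negative libraries had no test. Coordinates are those of GENCODE M21, and levels per kb use the summed length of annotated exons. Values in every library are given for collagen genes that were called, did not overlap between groups and had a mean of at least 100 in the higher group, and for the 2 highest of each class; a few others (Col4a5, Col6a1, Col8a2, Col11a2, Col14a1, Col17a1 and Col4a3) were added after their values were seen. Of each pathway list up to 3 called genes meeting the same conditions are named with values, and other genes of those lists were added likewise. The collagen genes, classes and lists were chosen with earlier results of these data known. Only the limma fit was tested on simulated data, with independent libraries that do not mimic the near copies among the replicates. Intervals and floors cover counting error only.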

Additional observations from a re-analysis of the deposited data

Results flagged for a closer look

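For 9 collagen genes the negative library lay on one side of all its positive libraries in the GFP line and on the other side in the Tomato line. The rule was not applied to all genes, so whether 9 of 38 is more than their share cannot be told. Each negative group is 1 library, and the difference between the lines was not tested for any of these genes. For 8 of these genes the level was higher in GFP+ than in GFP- cells and lower in Tomato+ than in Tomato- cells, and the log2 ratios of the lines differed by 7.12 for Col4a3, 2.81 for Col8a1, 2.12 for Col24a1, 1.77 for Col15a1, 1.46 for Col20a1, 1.18 for Col5a2, 0.82 for Col1a2 and 0.30 for Col5a1. Col2a1 went the opposite way, with a difference of -0.66. Col4a3 rests on a Tomato- level of 122 normalized reads and Tomato+ levels of 0.91, 11.3 and 0.719.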

How the results depend on the processing

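The count of lower collagen genes, 16 in the report, was 12 with replicates 1 and 3 averaged and 14 to 18 under the other alternatives. The 3 higher genes became 0 with replicates 1 and 3 averaged and 1 to 5 when 1 library was left out (1 without GFP+ replicate 3 or Tomato+ replicate 1, 5 without Tomato+ replicate 2). Genes apart from the negative library, 3 in the GFP line, were 7 at 1.5-fold, 1 at 4-fold, 5 with at least 20 normalized reads and 3 to 5 without 1 library (5 without GFP+ replicate 2). In the Tomato line the 5 genes became 9 at 1.5-fold, 3 at 4-fold and 4 to 8 without 1 library (8 without Tomato+ replicate 2). The log2 fold change of Col4a1 ranged from -0.055 to 0.0092 when 1 library was left out, positive without GFP+ replicate 2 or Tomato+ replicate 1, and that of Col26a1 from -0.042 to 0.16, negative without Tomato+ replicate 2, and was -0.076 with scaling to reads outside mitochondrial genes. In these reversals the adjusted p by limma was 0.689 to 0.994. The cause was not tested. Over all genes, averaging left 1437 higher and 1493 lower of 3186 and 3224, and leaving out 1 library as few as 2068 and 2134. With edgeR 20 collagen genes were called and with DESeq2 21, the 19 of the report among them. The replicate numbers did not pair the samples, with correlations of same-numbered deviations of 0.01 to 0.02, and a fit with the replicate block called 18 collagen genes, 17 of them shared, without Col18a1 and Col27a1 and with Col4a2. In that fit 3 collagen genes were higher and 15 lower. Separately from it, 7 chain pairs differed in 1 direction in all same-numbered samples. That rule is looser than the absence of overlap, which the report counts for 5 pairs, so the 2 counts are not comparable.

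Depth limits the low genes most: Col4a3, Col8a2 and Fmod were low in the libraries of 1 group, some of them near the floor. Effective replication is lower than 3 where replicates 1 and 3 are near copies, and each negative population is a single library.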
